A study of Mus musculus with 10 samples.

Results

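The genes described here carry pyruvate into the tricarboxylic acid (TCA) cycle and run the cycle itself. They are 32 genes chosen by name, out of 40503 genes measured, and cover the mitochondrial pyruvate carrier, pyruvate carboxylase, the pyruvate dehydrogenase (PDH) complex with its kinases and phosphatases, and the cycle enzymes from citrate synthase to malate dehydrogenase. Aco1, Idh1 and Mdh1 among them encode cytosolic enzymes. RNA-seq of polyA RNA was made from gonadal white adipose tissue, a visceral fat depot, of female C57BL/6 mice aged 12 weeks. The 5 KO-labelled animals (numbers 1, 4, 7, 8 and 17) carried, by their label, the inducible adipose knockout of Med19, a subunit of the Mediator complex, and by the labels were given 100 mg/kg tamoxifen over 5 days, 14 days before the fat was collected. The 5 WT animals (numbers 2, 9, 19, 86 and 89) were their controls. Neither the tamoxifen status of the WT animals nor the promoter of the recombinase is stated in the labels.

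In fat cells pyruvate enters the mitochondrion through a carrier made of Mpc1 and Mpc2 and then has 2 main fates. The PDH complex turns it into acetyl-CoA, and pyruvate carboxylase (Pcx) turns it into oxaloacetate, so that together they supply the precursors of citrate. Citrate that leaves the mitochondrion is the carbon source for new fatty acids, and Pcx is abundant in white fat; part of the carbon returns as malate and pyruvate. In rodents Pcx has a distal and a proximal start region, whose RNAs differ in their untranslated leaders. The proximal one is known for its use in lipogenic and gluconeogenic tissues, and mouse Pcx has been described as a target of PPARg in adipocytes.

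Both start regions are shown because the Pcx difference lay mainly in the transcript annotated from the proximal one. The windows hold the 250 bases before each RefSeq start on the plus strand of chromosome 19, chr19:4510222-4510471 for the distal and chr19:4594069-4594318 for the proximal start (GRCm38.p6), and the starts lie 83847 bases apart. Capitals mark matches, on either strand, to the GC box bound by Sp1 (GGGCGG), the CCAAT box (CCAAT), the hexamer bound by nuclear receptors (AGGTCA), an E box (CACGTG) or the TATA box (TATAAA).
Pcx distal: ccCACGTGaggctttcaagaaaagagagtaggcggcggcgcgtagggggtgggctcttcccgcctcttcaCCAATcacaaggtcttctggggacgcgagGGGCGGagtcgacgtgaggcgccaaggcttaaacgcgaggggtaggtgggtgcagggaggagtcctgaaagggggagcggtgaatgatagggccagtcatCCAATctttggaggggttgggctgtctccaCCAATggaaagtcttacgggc
Pcx proximal: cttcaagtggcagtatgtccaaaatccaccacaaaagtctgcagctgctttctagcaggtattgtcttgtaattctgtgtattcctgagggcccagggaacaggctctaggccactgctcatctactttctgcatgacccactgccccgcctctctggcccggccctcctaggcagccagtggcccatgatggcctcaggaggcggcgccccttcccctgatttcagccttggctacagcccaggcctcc
The distal window held 3 CCAAT boxes, 1 GC box and 1 E box, with no overlap between them, and the proximal window held 0 matches to these 5 motifs. Of 32851 RefSeq promoter windows of this length, 33.9% held the CCAAT box, 32.7% the GC box, 14.0% the nuclear receptor hexamer, 12.4% the TATA box and 6.02% the E box. The distal window had 16 CpG dinucleotides and the proximal window 4, against a median of 6 over all windows, with a GC content of 60.8% and 58.0%. The transcript ENSMUST00000068004 starts at the distal RefSeq start, and ENSMUST00000113825 starts 27 bases inside the proximal one in GENCODE M21. A motif match describes letters only. Sites further from the starts, or with other letters than these exact strings, were not searched, so 0 matches does not show that a binding site is absent.

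Values are RPKM, reads scaled to gene length and library size, as the authors deposited them. Library sizes recovered from the steps between values were 15199263 to 20206344 reads in the KO-labelled group and 14460046 to 16207283 in the WT group, and 21 of the 32 genes whose reads could be recovered had 181 to 7986 reads per library. Med19 itself averaged 6.79 ± 0.85 RPKM with the KO label and 6.70 ± 0.89 RPKM in WT (SD, n = 5 each; 2-sided exact permutation p = 0.881), so its RNA did not check the labels and every direction below rests on them. Of all tested genes 1.95% fell and 4% rose, the shares to set beside each marker list here. Of 12 adipocyte markers, 11 fell and 0 rose, with a median log2 difference of -1.37. Their summed level was 6430 to 7312 RPKM in KO-labelled and 17083 to 24963 RPKM in WT libraries. In whole tissue, fewer adipocytes and less of an RNA per adipocyte cannot be told apart. Of 8 macrophage markers Itgam rose and 0 fell, and their sum was 4033 to 5088 RPKM in KO-labelled and 3349 to 4458 RPKM in WT libraries. Of 8 fibroblast and progenitor markers Cd55 and Lum rose and 0 fell, with sums of 1997 to 2271 RPKM with the KO label and 1589 to 2151 RPKM in WT. Of 6 endothelial markers Kdr fell and 0 rose, with sums of 86.7 to 124 RPKM with the KO label and 96.7 to 122 RPKM in WT. The calls of Itgam, Cd55 and Lum ended under median-ratio scaling (limma adjusted p = 0.116, 0.124 and 0.143). Kdr was no longer called without any single library except KO 8, nor Lum without any except WT 9 or WT 89. Cd55 was no longer called without KO 1 or WT 86, and Itgam was called with 1 library left out only where that was KO 4, KO 17, WT 2 or WT 19.

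All 32 genes were above the filter in every library, with a lowest single value of 4.12 RPKM. A gene was called when limma's adjusted p over all 17038 tested genes was under 0.05, on log2(RPKM + 0.5). By this rule 2 of the 32 fell, Pcx and Pdha1, and 0 rose, where 1.95% of all tested genes fell and 4% rose (5.95% in either direction). At an unadjusted p under 0.05 there were 14 of the 32 (9 lower and 5 higher), where 24.7% of all tested genes reached that level. The median log2 difference was -0.13 over the 32 genes and 0.09 over all tested genes. Under median-ratio scaling these medians were -0.22 and 0.01, and Dlat fell too (limma adjusted p = 0.0339); under quantile normalization both Dlat (0.0304) and Mdh1 (0.0418) fell. Over all genes, 2.45% fell and 0.605% rose under the first of these, and 2.3% fell and 0.875% rose under quantile normalization.

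**Figure D1:**
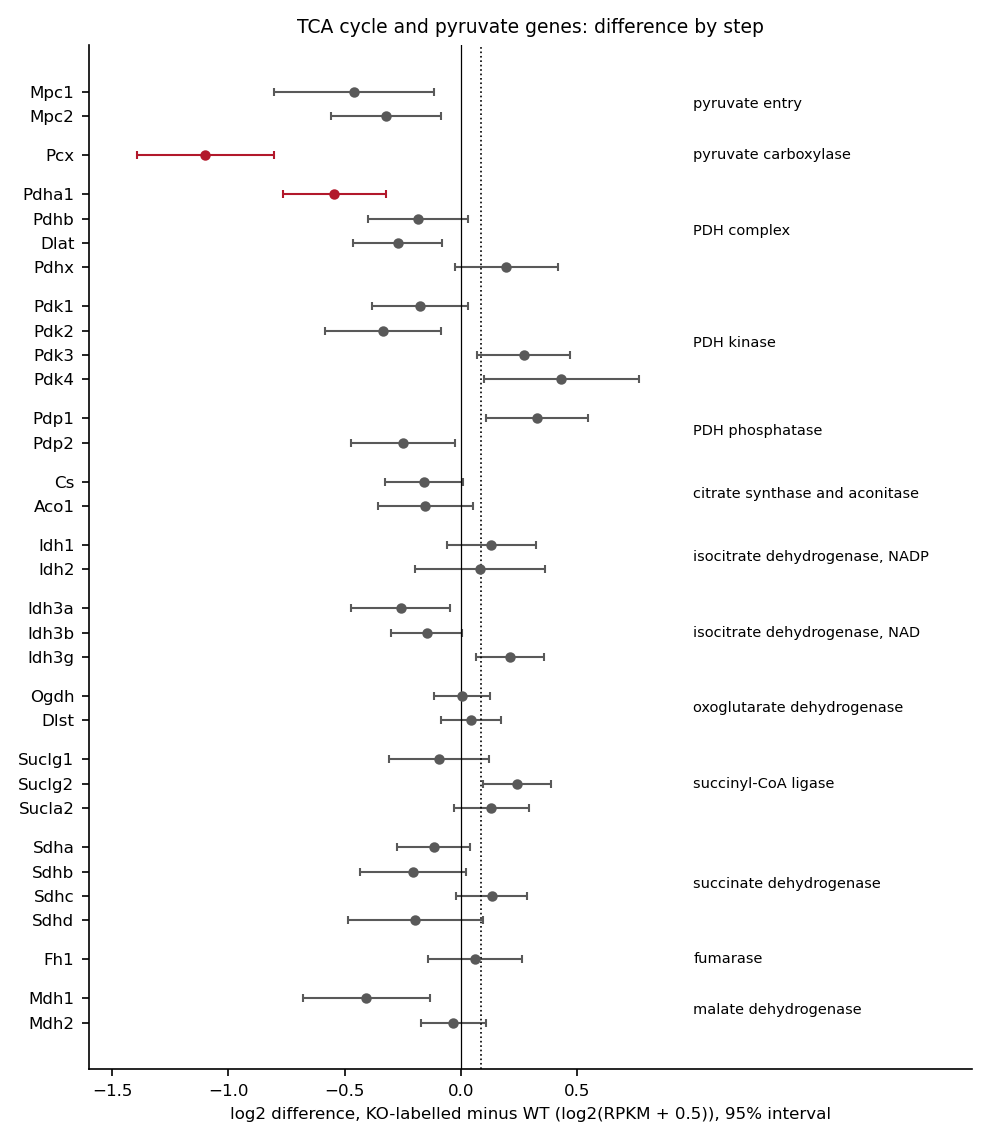
Log2 difference of each of the 32 genes, KO-labelled minus WT on the log2(RPKM + 0.5) scale, grouped by step, with limma's 95% interval; red marks the called genes and the dotted line the median of all tested genes (0.09). Pcx at -1.10 lies furthest left and Pdha1 at -0.54 next. The points from Idh1 down to Mdh2, with the cytosolic Idh1 and Mdh1 among them, lie between -0.41 (Mdh1) and 0.24.

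Pcx showed the largest difference of the 32 genes. It was at 82.6, 97.4, 82.6, 83.2 and 87.9 RPKM in KO-labelled animals 1, 4, 7, 8 and 17, against 162, 219, 183, 239.6 and 143 RPKM in WT animals 2, 9, 19, 86 and 89. The groups did not overlap, and the KO-labelled libraries lay close together (SD 6.36 RPKM) while the WT libraries were spread (SD 39.6 RPKM). The log2 value fell by 1.10 (SE 0.13; limma adjusted p = 0.00127), a ratio of 0.458 between the means. Pcx (ENSMUSG00000024892) ranked 1 of the 32 genes by mean RPKM in WT and 3 in the KO-labelled group, behind Idh1 and Cs. Of the 32 genes, 2 (Pcx and Pdha1) had all KO-labelled libraries below all WT libraries, as had 2.15% of all tested genes (9.11% were separated in either direction).

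The fall of Pcx lay mainly in the transcript annotated from the proximal start. Use of the starts themselves was not measured. The proximal transcript was at 5.84, 6.68, 9.53, 1.89 and 6.03 RPKM in KO-labelled animals 1, 4, 7, 8 and 17, against 64.0, 78.0, 66.1, 92.8 and 42.0 RPKM in WT animals 2, 9, 19, 86 and 89. Every KO-labelled library was under 10 RPKM and every WT library above 40 RPKM. Its mean was 11.4 times higher in WT, and its log2 value fell by 3.50 (limma adjusted p = 0.00224 over 44475 tested transcripts, of which 0.452% fell). The distal transcript was at 55.4, 65.4, 52.4, 58.7 and 60.4 RPKM in the KO-labelled animals, against 59.8, 86.1, 67.4, 84.7 and 66.7 RPKM in the WT animals in the same order. These groups overlapped, and the log2 difference of -0.31 did not pass (limma adjusted p = 0.438).

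As a share of both Pcx transcripts, the proximal one made up 9.27 ± 4.34% in KO-labelled libraries and 47.9 ± 5.5% in WT libraries (SD, n = 5 each). The share ran from 3.12% in KO 8 to 15.4% in KO 7, and from 38.6% in WT 89 to 52.3% in WT 86. The ratio of proximal to distal transcript was 0.104 ± 0.053 in KO-labelled and 0.936 ± 0.187 in WT libraries (2-sided exact permutation p = 0.0079, the smallest that the assignments of 5 and 5 libraries allow). This pair was chosen after the transcript values were seen. The sum of both transcripts was 64.5 ± 4.9 RPKM in KO-labelled and 141.5 ± 28.5 RPKM in WT libraries, a ratio of 0.455, beside the 0.458 of the gene table. How reads were divided between transcripts is not stated in the labels, and transcripts that share exons are told apart only by the reads over their own parts.

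**Figure D2:**
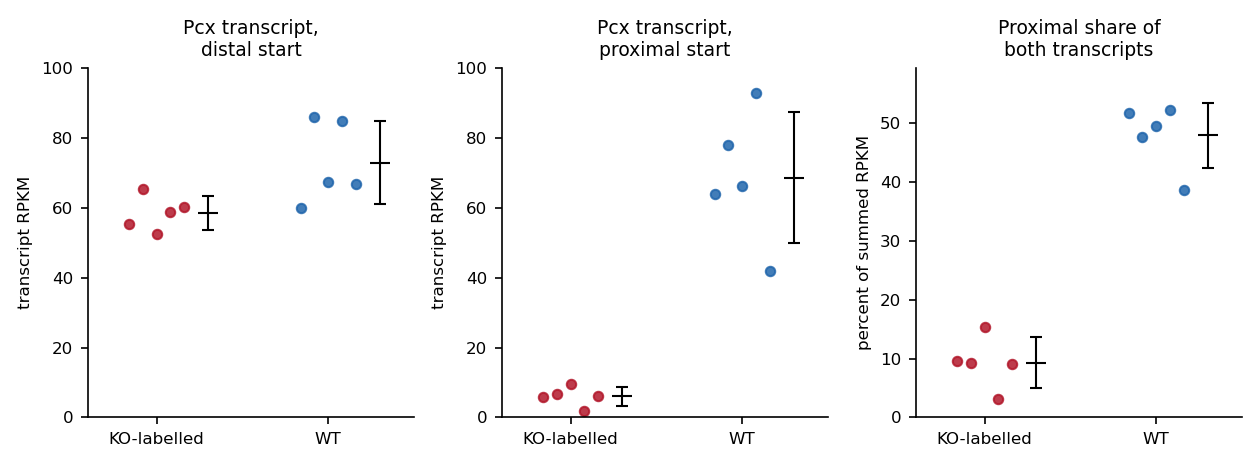
Transcript RPKM of the distal-start and the proximal-start Pcx RNA, and the proximal share in percent of their sum; points are single libraries, bars the mean ± SD (n = 5 each). The distal RNA overlaps between groups, while the proximal RNA is 1.89 to 9.53 RPKM in KO-labelled and 42.0 to 92.8 RPKM in WT libraries.

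Adipocyte genes fell beside Pcx. The adiponectin gene Adipoq fell by 1.21, the droplet coat gene Plin1 by 1.18 and the nuclear receptor gene Pparg by 1.11 on the log2 scale (limma adjusted p = 5.20e-04, 8.33e-04 and 2.60e-04). Pparg was at 29.7 ± 2.2 RPKM in KO-labelled and 64.98 ± 9.96 RPKM in WT libraries (SD, n = 5 each). Their part in the Pcx result was not tested.

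Of the PDH complex, the gene of the E1 alpha subunit fell and its partners were not called. Pdha1, whose protein holds the serines that the kinases phosphorylate, was at 42.9, 51.8, 40.8, 40.4 and 45.4 RPKM in KO-labelled animals 1, 4, 7, 8 and 17, against 57.4, 72.5, 67.0, 72.3 and 55.2 RPKM in WT animals 2, 9, 19, 86 and 89. The groups did not overlap, with KO 4 and WT 89 the nearest pair. The log2 value of Pdha1 (ENSMUSG00000031299) fell by 0.54 (SE 0.10; limma adjusted p = 0.0155). Its protein-coding transcript ENSMUST00000033662 was at 55.1 ± 5.8 RPKM in KO-labelled and 84.3 ± 10.8 RPKM in WT libraries (limma adjusted p = 0.0444), but leaving out any 1 library other than KO 4 or WT 89 gave adjusted p of 0.0541 to 0.125.

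Pdhb, the E1 beta subunit that pairs with Pdha1, was at 35.5 ± 0.9 RPKM in KO-labelled and 40.8 ± 6.3 RPKM in WT libraries (log2 difference -0.18, limma adjusted p = 0.27). The ratio of Pdha1 to Pdhb was 1.25 ± 0.14 in KO-labelled and 1.61 ± 0.24 in WT libraries (2-sided exact permutation p = 0.0159, adjusted p = 0.0317 over 6 ratios). Among KO-labelled libraries KO 4, at 1.48, lay inside the WT range and the other 4 below it. The 6 ratios tested here and below were chosen with earlier results of these data known, which the adjustment does not cover. Dlat, the E2 acetyltransferase, was at 10.4, 12.0, 11.0, 9.63 and 11.6 RPKM in KO-labelled libraries, against 12.8, 14.9, 13.4, 14.2 and 11.2 RPKM in WT (log2 difference -0.27, limma adjusted p = 0.0852). WT 89 was the library that made these groups overlap. Pdhx, the E3-binding protein, was at 7.53 ± 0.68 RPKM with the KO label and 6.54 ± 0.98 RPKM in WT (log2 difference 0.20, limma adjusted p = 0.259). Both carrier genes had lower means without passing: Mpc1 was at 10.7 ± 2.3 RPKM in KO-labelled and 14.7 ± 2.4 RPKM in WT libraries (limma adjusted p = 0.103), and Mpc2 at 12.3 ± 1.6 RPKM with the KO label and 15.5 ± 2.1 RPKM in WT (0.098).

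**Figure D3:**
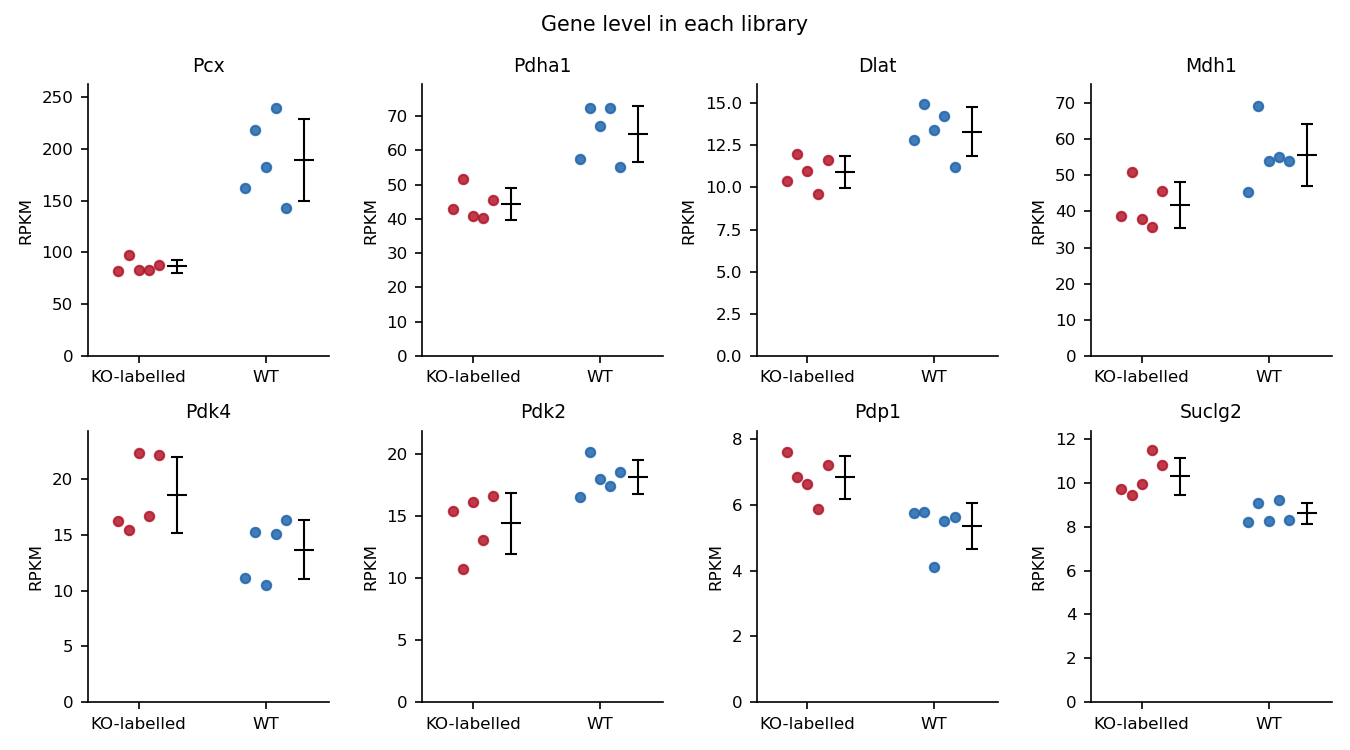
RPKM of 8 genes in each library, with the mean ± SD beside the points (n = 5 each). Pcx and Pdha1 lie lower in every KO-labelled library, Pdp1 and Suclg2 lie higher in every KO-labelled library, and Dlat, Mdh1, Pdk4 and Pdk2 overlap between the groups.

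None of the PDH kinase and phosphatase genes was called. The Pdk4 share of the kinase RNA was higher in every KO-labelled library than in any WT library, and this share was not tested. Of all tested genes, 9.11% separated the groups in either direction. No such figure was made for ratios or shares. The kinases, which switch the complex off, summed to 48.8 ± 5.4 RPKM in KO-labelled and 47.4 ± 4.8 RPKM in WT libraries. The phosphatases, which switch it on, summed to 12.99 ± 0.16 RPKM with the KO label and 12.81 ± 1.33 RPKM in WT. Both sums overlapped between the groups. Pdk4, the kinase isoform induced in fasting, was at 16.2, 15.4, 22.3, 16.7 and 22.1 RPKM in KO-labelled animals 1, 4, 7, 8 and 17, against 11.1, 15.2, 10.5, 15.0 and 16.3 RPKM in WT animals 2, 9, 19, 86 and 89 (log2 difference 0.43, SE 0.15, limma adjusted p = 0.111). Pdk2, the widely expressed isoform, was at 15.5, 10.8, 16.2, 13.1 and 16.7 RPKM in KO-labelled animals, against 16.6, 20.2, 18.0, 17.5 and 18.6 RPKM in WT (log2 difference -0.34, SE 0.11, limma adjusted p = 0.102). Each gene overlapped between the groups.

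Taken as a ratio within each library, which a scaling factor per library leaves as it is, Pdk4 over Pdk2 separated the groups. It was 1.05, 1.43, 1.38, 1.27 and 1.33 in KO-labelled animals 1, 4, 7, 8 and 17, against 0.672, 0.754, 0.582, 0.861 and 0.876 in WT animals 2, 9, 19, 86 and 89. Pdk4 exceeded Pdk2 in every KO-labelled library and in 0 WT libraries (log2 difference 0.79; 2-sided exact permutation p = 0.0079, the smallest possible, adjusted p = 0.0238 over 6 ratios). Pdk4 made up 37.8 ± 3.0% of the summed kinase RPKM in KO-labelled and 28.6 ± 3.5% in WT libraries (SD, n = 5 each). The pair of Pdk4 and Pdk2 was chosen with earlier results known, which the adjustment over 6 ratios does not cover. Pdk1 (log2 difference -0.18) and Pdk3 (0.27) were each under 10 RPKM on average in both groups and were not called.

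Of the phosphatases, Pdp1, the calcium-activated isoform, was at 7.59, 6.83, 6.64, 5.86 and 7.20 RPKM in KO-labelled animals, against 5.76, 5.78, 4.12, 5.49 and 5.61 RPKM in WT (log2 difference 0.33, SE 0.10, limma adjusted p = 0.0751). Each KO-labelled value exceeded every WT value, as in 6.96% of all tested genes. Pdp2, the isoform linked to insulin, averaged 6.17 ± 0.58 RPKM in KO-labelled and 7.46 ± 1.14 RPKM in WT libraries (limma adjusted p = 0.165). The Pdp1 over Pdp2 ratio was 1.12 ± 0.21 in KO-labelled and 0.731 ± 0.153 in WT libraries (2-sided exact permutation p = 0.0238, adjusted p = 0.0357 over 6 ratios), with KO 8 at 0.84 inside the WT range. Leaving out KO 1 gave an adjusted p of 0.0714, and leaving out KO 4, KO 7 or KO 17 gave 0.0595 each, so none of these passed.

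**Figure D4:**
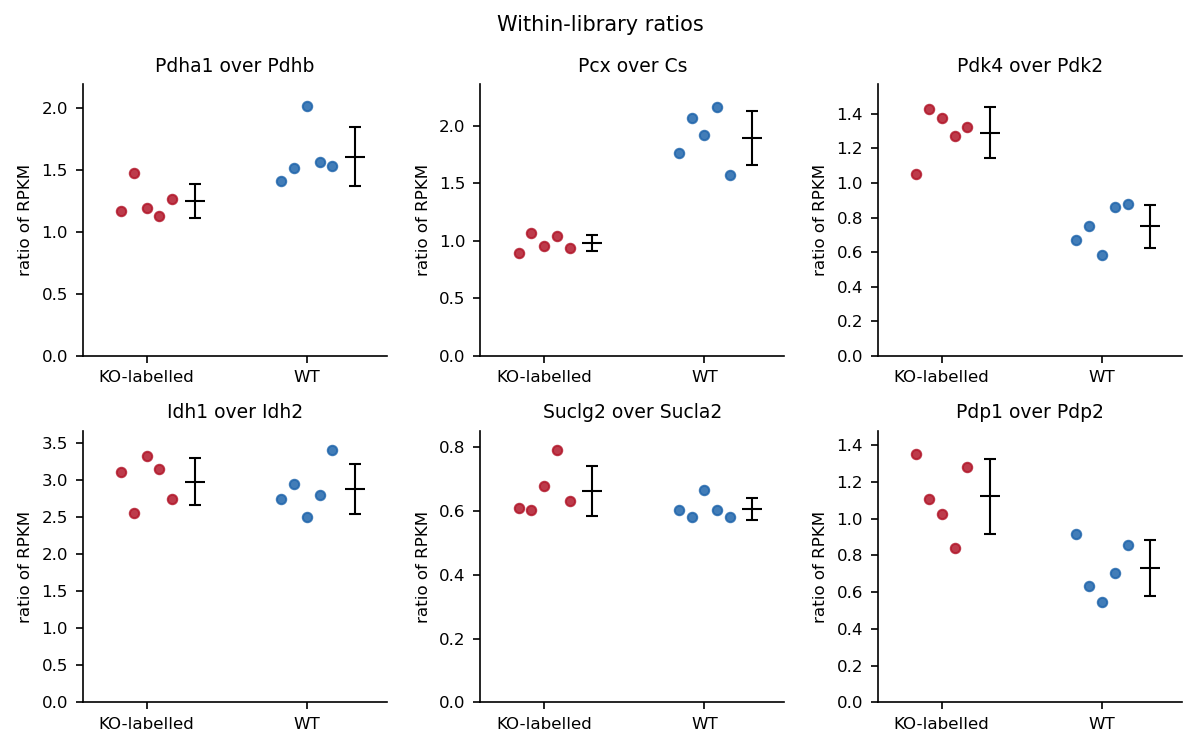
Ratio of RPKM within each library for 6 pairs of subunits, isozymes or pyruvate branches, with the mean ± SD beside the points (n = 5 each). Pcx over Cs lies lower and Pdk4 over Pdk2 higher in every KO-labelled library, while Idh1 over Idh2 and Suclg2 over Sucla2 overlap.

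At the entry of the cycle, citrate synthase (Cs) was at 88.6 ± 5.6 RPKM in KO-labelled and 99.2 ± 8.8 RPKM in WT libraries (log2 difference -0.16, 95% interval -0.33 to 0.01, limma adjusted p = 0.226). The ratio of Pcx to Cs was 0.98 ± 0.07 in KO-labelled and 1.89 ± 0.24 in WT libraries (2-sided exact permutation p = 0.0079, the smallest possible, adjusted p = 0.0238). It ran from 0.897 in KO 1 to 1.07 in KO 4, and from 1.57 in WT 89 to 2.16 in WT 86. This ratio holds the called gene Pcx and was chosen with earlier results known. Aco1, the cytosolic aconitase that also binds iron-responsive RNA elements, was at 37.3 ± 3.4 RPKM with the KO label and 41.6 ± 5.0 RPKM in WT (limma adjusted p = 0.345).

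None of the isocitrate dehydrogenase genes was called. Idh1, the cytosolic NADP enzyme, was at 128 ± 12 RPKM in KO-labelled and 117 ± 11 RPKM in WT libraries, and its mitochondrial counterpart Idh2 at 43.6 ± 8.7 RPKM with the KO label and 40.7 ± 3.6 RPKM in WT. The ratio of Idh1 to Idh2 was 2.98 ± 0.32 in KO-labelled and 2.88 ± 0.34 in WT libraries (2-sided exact permutation p = 0.643, adjusted p = 0.643). The subunits of the NAD-linked enzyme of the cycle did not share a sign: the catalytic Idh3a had a log2 difference of -0.26 (limma adjusted p = 0.133), Idh3b -0.15 (0.222) and the regulatory Idh3g 0.21 (0.0826). Their summed level was 114.6 ± 6.8 RPKM in KO-labelled and 114.6 ± 6.7 RPKM in WT libraries.

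Ogdh and Dlst had the narrowest intervals of the 32 genes. Ogdh, the E1 of the 2-oxoglutarate dehydrogenase complex, was at 60.5 ± 2.9 RPKM in KO-labelled and 60.2 ± 1.8 RPKM in WT libraries, with a 95% interval of the ratio from 0.924 to 1.09. Dlst, its E2, was at 64.0 ± 1.2 RPKM with the KO label and 62.2 ± 4.2 RPKM in WT (interval of the ratio 0.943 to 1.13). The signs of Ogdh, Dlst, Idh2 and the fumarase gene Fh1 turned under median-ratio scaling and quantile normalization. Suclg2, the GTP-forming succinyl-CoA ligase subunit, was at 9.73, 9.45, 9.94, 11.5 and 10.8 RPKM in KO-labelled animals, against 8.22, 9.06, 8.26, 9.19 and 8.28 RPKM in WT (log2 difference 0.24, SE 0.07, limma adjusted p = 0.057). Each KO-labelled value of Suclg2 exceeded every WT value, as in 6.96% of all tested genes. It was called without KO 4 (limma adjusted p = 0.0475) and in no other alternative, where limma adjusted p reached 0.22. The ratio of Suclg2 to the ATP-forming Sucla2 was 0.662 ± 0.078 in KO-labelled and 0.607 ± 0.035 in WT libraries (2-sided exact permutation p = 0.183, adjusted p = 0.219), and the shared subunit Suclg1 had a log2 difference of -0.09.

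Succinate dehydrogenase, also complex II of the respiratory chain, had 0 of 4 subunit genes called. The flavoprotein Sdha was at 82.4 ± 4.0 RPKM in KO-labelled and 89.6 ± 7.8 RPKM in WT libraries, and the log2 differences were -0.12 for Sdha, -0.21 for the iron-sulfur subunit Sdhb, 0.13 for the membrane anchor Sdhc and -0.19 for the anchor Sdhd. Fh1 was at 19.7 ± 2.5 RPKM with the KO label and 18.8 ± 1.6 RPKM in WT. Mdh1, the cytosolic malate dehydrogenase of the malate-aspartate shuttle, was at 38.9, 51.0, 37.8, 35.7 and 45.6 RPKM in KO-labelled animals 1, 4, 7, 8 and 17, against 45.4, 69.2, 54.0, 55.1 and 53.9 RPKM in WT animals 2, 9, 19, 86 and 89 (log2 difference -0.41, SE 0.12, limma adjusted p = 0.0779). Only KO 4 and KO 17 reached the lowest WT library, WT 2. Mdh1 was called without KO 4 (limma adjusted p = 0.0461). The mitochondrial Mdh2 was at 58.1 ± 3.5 RPKM with the KO label and 59.4 ± 3.5 RPKM in WT (log2 difference -0.03, 95% interval -0.17 to 0.11); whether Mdh1 and Mdh2 differ from each other in response was not tested.

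Single libraries were often the highest or lowest of their group. KO 4 was the highest KO-labelled library for 19 of the 32 genes and KO 8 the lowest for 16, while WT 9 was the highest WT library for 21. The coefficient of variation of single genes ran from 1.90% (Dlst) to 22.0% (Mpc1) in the KO-labelled group and from 2.95% (Ogdh) to 20.9% (Pcx) in the WT group. The 31 genes other than Pcx summed to 1098 ± 64 RPKM in KO-labelled and 1160 ± 82 RPKM in WT libraries. With Pcx the sums were 1185 ± 69 RPKM with the KO label and 1349 ± 116 RPKM in WT. Markers of mitochondria-rich cells varied between libraries: the 7 brown adipocyte markers summed to 20.8 to 47.9 RPKM in KO-labelled and 13.2 to 84.5 RPKM in WT libraries, with Ucp1 listed at 0 in KO 17, and the 8 skeletal muscle markers summed to 2.55 to 87.5 RPKM with the KO label and 17.6 to 42.6 RPKM in WT. Within the KO-labelled group the 8 muscle markers were each highest in KO 1 and KO 4. The median of the muscle sums was 5.39 RPKM in KO-labelled and 33.8 RPKM in WT libraries. In the brown adipocyte and the muscle list 3 markers each were tested and 0 called, which does not show equal levels between libraries. Of 7 mammary epithelial markers 3 were tested and 0 called, with Csn2 listed at 0 in every library and sums of 14.1 to 24.0 RPKM with the KO label and 13.3 to 19.5 RPKM in WT. Their part in the results was not tested.

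A list of 34 further genes around the cycle, of which 33 were tested, had 3 that fell and 4 that rose, or 21.2% called, where 1.95% of all tested genes fell and 4% rose (5.95% in either direction). Its median log2 difference was 0.05, beside 0.09 over all tested genes. The list was chosen with earlier results of these data known, so its share called is no test of the pathway. The 3 that fell were Me1, Slc25a10 and Slc25a1, whose products carry or use citrate, malate and pyruvate between mitochondrion and cytosol. Me1, the cytosolic malic enzyme that makes NADPH, was at 11.3, 11.8, 13.1, 10.1 and 11.1 RPKM in KO-labelled animals 1, 4, 7, 8 and 17, against 42.8, 33.6, 30.5, 62.9 and 22.5 RPKM in WT animals 2, 9, 19, 86 and 89, and fell by 1.62 on the log2 scale (SE 0.23; limma adjusted p = 0.00358). The mitochondrial dicarboxylate carrier gene Slc25a10 fell by 0.97 (limma adjusted p = 8.80e-04), to 24.1 ± 2.6 RPKM in KO-labelled against 47.9 ± 6.9 RPKM in WT libraries. The citrate carrier gene Slc25a1 fell by 0.81 (limma adjusted p = 0.0180), to 51.8 ± 7.9 RPKM in KO-labelled against 92.2 ± 19.9 RPKM in WT libraries. For each of the 3, every KO-labelled library lay under every WT library, as in 2.15% of all tested genes.

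The 4 rises were of Slc16a1, a plasma membrane carrier of lactate and pyruvate (log2 difference 0.56, limma adjusted p = 0.00606), the mitochondrial malic enzyme gene Me2 (0.26, 0.0235), and the aspartate aminotransferase genes Got1 (cytosolic, 0.28, 0.0413) and Got2 (mitochondrial, 0.34, 0.0231). Slc16a1 was at 31.4, 30.2, 24.6, 23.6 and 30.3 RPKM in the KO-labelled animals and at 17.8, 18.5, 17.9, 19.97 and 19.2 RPKM in the WT animals. Median-ratio scaling kept the call of Slc16a1 and ended those of Me2 (limma adjusted p = 0.141), Got1 (0.238) and Got2 (0.12). Me2 was also lost without KO 8, KO 17 or WT 86, Got2 without KO 1, KO 17, WT 86 or WT 89, and Got1 without any single library except KO 8 or WT 2. Ldha, a lactate dehydrogenase subunit and with Slc25a1 one of the 2 most abundant genes of the list, was not called, at 136 ± 9 RPKM in KO-labelled and 129 ± 10 RPKM in WT libraries. Dld, the E3 subunit that the PDH and 2-oxoglutarate dehydrogenase complexes share, was at 45.9 ± 7.1 RPKM with the KO label and 44.6 ± 3.3 RPKM in WT (limma adjusted p = 0.908).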

How the data were processed

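RPKM values per gene and per transcript were deposited by the authors in 2 tables, whose names are the source of the unit. Per the submitters' processing notes, bcl2fastq, STAR (2.0.4b1), Subread and featureCounts (1.4.52) were used; no source used here states the build, annotation or filters. Where a gene or transcript ID had more than 1 row, the first row was kept. Library sizes were recovered from the RPKM steps with GENCODE M21 exon lengths, with at least 76.0% of low values whole within 0.001 of their size. Genes at 0.5 RPKM or more in at least 5 of 10 libraries were fitted as log2(RPKM + 0.5) with limma 3.58.1 in R 4.3.3 (eBayes, trend and robust, statmod 1.5.0), 2-sided, with Benjamini-Hochberg adjustment over 17038 genes or 44475 transcripts. Log2 differences understate changes of low genes. On simulated reads for 17160 genes, with the same length, library size and relative spread set for all, the fit recovered 95.4% of 2-fold changes. Smaller changes were not simulated. The 6 ratios were tested by exact permutation over all assignments, 2-sided. The genes, lists and ratios were chosen with earlier results of these data known. The genes named are all 32, the called and the 2 most abundant further pathway genes, the called markers of other cell types, Adipoq, Plin1, Pparg and Med19; Dld, Ucp1, Csn2 and the Pcx transcript pair were named after their values were seen. Promoter sequences are RefSeq's (GRCm38.p6), which held 29 of the 32 genes. The labels give no batch. The limma p-values set each group difference against the spread between these animals, moderated across genes. The permutation p-values count assignments of the libraries to the groups. Alternatives were pseudocounts of 0.1 and 1, other filters and scalings, a plain eBayes fit and leaving out each library.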

Additional observations from a re-analysis of the deposited data

Results flagged for a closer look

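In 68 sets of 5 libraries checked (each of the 32 genes and both Pcx transcripts in each group), 2 had a single library far from the rest, where chance flags about 1 in 20. Pdp1 in WT 19 was at 4.12 RPKM, below the other WT libraries at 5.49 to 5.78 RPKM. Suclg1 in WT 2 was at 9.21 RPKM, below the other WT libraries at 11.4 to 12.0 RPKM.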

How the results depend on the processing

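No paired analysis was possible because the KO-labelled and WT animals share no replicate number. Pcx and Pdha1 remained called in all 17 alternatives, with log2 differences of -1.19 to -1.01 and -0.63 to -0.50. The count of genes that fell among the 32 was 4 under quantile normalization; without single libraries it was 2 to 3, and 0 to 1 rose. Over all genes, 292 rose with no filter, 103 under median-ratio scaling and 149 under quantile normalization, against 681; without single libraries 188 to 689 rose and 206 to 314 fell. Of the further pathway genes 1 rose under median-ratio scaling and 1 under quantile normalization, and 1 to 4 without single libraries. Signs of genes that were not called turned under median-ratio scaling and quantile normalization for Idh2 (-0.0067 and -0.0090), Ogdh (-0.086 and -0.077), Dlst (-0.046 and -0.039), Fh1 (-0.029 and -0.019) and Med19 (-0.066 and -0.046). Without single libraries, log2 differences ran from -0.0099 to 0.15 for Idh2, -0.021 to 0.024 for Ogdh, -0.0050 to 0.10 for Fh1 and -0.037 to 0.083 for Med19. The log2 difference of the Pdp1 to Pdp2 ratio ran from 0.53 to 0.72, and that of Idh1 to Idh2 from -0.0017 to 0.11. The causes were not tested. The proximal Pcx transcript remained called in all 13 alternatives run for it (log2 -3.70 to -3.18).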
